A study of Mus musculus with 20 samples.

Results

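Myc and the ribosome biogenesis genes that it is known to drive were followed as 1 module of 42 genes across CD4 T cell subsets of the mouse. The module holds Myc and its relatives and partners Mycn, Max and Mxd4, together with 38 genes that make, modify or assemble ribosomal RNA. The genes were chosen by name and role, with earlier results of these data known. Each was read from the probe that carries its symbol, taking the brightest probe where several do. All 42 were on the array, among 30199 gene names, and 40 passed the filter for detected probes, among 17246 gene names tested. Mycn was at the floor intensity of 20 on all 20 arrays, and Utp18 was above background on a single array, a PP Treg array, at 52. Both were left out of every test, so 37 of the 38 biogenesis genes were tested.

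The study compared follicular helper (TFH) and follicular regulatory (TFR) T cells with naive T cells and regulatory T (Treg) cells, by hybridising RNA of sorted cells to 1-colour Agilent arrays. All cells came from B6.Cg-Foxp3<tm1Mal> mice of 8 to 14 weeks and mixed sex, in which green fluorescent protein (GFP) reports Foxp3, and each sample pooled 8 to 15 mice. Peripheral lymph nodes (pLN) were taken at day 12 or day 25 after subcutaneous keyhole limpet hemocyanin with Alum. Peyer's patches (PP), the lymphoid follicles of the gut wall, carry no day in the labels, and the labels do not name an immunisation for them. All fractions were gated as DAPI-B220-CD4+, a gate that removes B cells. Naive cells were sorted as GFP-PD1-GL7-, Treg as GFP+PD1-GL7-, TFH as GFP-PD1hi GL7+ and TFR as GFP+PD1hi with or without GL7, and PP also gave GFP-PD1hi GL7- TFH cells. There were 2 arrays for each of the 4 pLN groups at day 12 and each of the 4 PP groups, and 1 array for each pLN group at day 25. PP had no naive group.

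Myc binds DNA as a dimer with Max, and Mxd4 belongs to the Mxd proteins, which compete for Max and repress the same kind of site. In lymphocytes Myc is induced by antigen receptor and cytokine signals and drives cell growth, of which ribosome production is a large part. Ribosome assembly starts in the nucleolus, where RNA polymerase I copies the ribosomal RNA precursor. Box C/D and H/ACA ribonucleoproteins then guide its methylation and pseudouridylation, and separate sets of factors cut and package the small and the large subunit. The polymerase I members were Polr1a, Polr1b and Polr1c. The nucleolar chaperones and organisers were Ncl, Npm1, Npm3, Nolc1, Gnl3, Ddx21 and Mybbp1a. The ribonucleoprotein core was given by Fbl, Nop56, Nop58, Dkc1, Gar1 and Nhp2, and the small subunit factors were Nop14, Wdr43, Rrp9, Rrp12, Utp18, Utp20, Tsr1, Bysl, Nob1 and Imp4. The other 12 members, Nop2, Nop16, Bop1, Pes1, Wdr12, Wdr74, Rrp1b, Rrs1, Ddx18, Noc2l, Nip7 and Ebna1bp2, serve the large subunit.

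The site to which Myc and Max bind best, the E-box, was searched as CACGTG, which reads the same on both strands, in RefSeq promoter windows of 300 bases (250 before and 50 after the start, GRCm38.p6). The motif stood in the window of 10 of 36 members that had one (27.8%), and in 8 of 33 biogenesis members (24.2%). Among all genes with a window, detected in these cells or not, it stood in 2187 of 27025 (8.09%). The share among the genes tested here was not computed. The 8 biogenesis members were Nop2, Pes1, Wdr43, Utp20, Utp18, Mybbp1a, Tsr1 and Imp4, and the other two members were Max and Mxd4. Windows of Myc, Npm1, Fbl, Bop1, Rrp12 and Rrs1 were not used here. The 4 stretches below, each of 30 bases on the strand of its gene with the motif in capitals, are shown because Max and Mxd4 are Myc's own network, Tsr1 differed between cell types, and Nop2 was among the members whose profile was most like that of Myc.
Max, chr12:76962234-76962263, minus strand: ggtgagcccggtCACGTGttagggggccga
Mxd4, chr5:34187912-34187941, minus strand: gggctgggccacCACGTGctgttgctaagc
Tsr1, chr11:74898092-74898121, plus strand: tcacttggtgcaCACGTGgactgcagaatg
Nop2, chr6:125131811-125131840, plus strand: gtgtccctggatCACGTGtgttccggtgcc
A match of these letters is a description of the window and not of binding.

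Between 43.0% and 58% of probes were well above background on each array, and no probe was saturated. The background median was 268 on the second pLN day 12 TFR array and 24 to 78 on all others. By the labels, RNA input was 50 ng for replicate 1 of the pLN day 12 and PP groups. It was 40 ng for their replicate 2 and at day 25. The Foxp3 probe read 13512 to 35482 on the Treg and TFR arrays and 27 to 191 on the naive and TFH arrays. On the replicate 1 arrays of pLN at day 12, Lrrc32 read 25415 in Treg and 15268 in TFR, against 144 in naive and 155 in TFH. Ikzf2, also listed as a Treg marker, did not set TFH apart there. It read 5910 in TFH and 41 in naive, against 7319 in Treg and 9743 in TFR. Replicate arrays correlated with r of 0.955 to 0.986. Each slide held 4 arrays. The 2 arrays of a day 12 group lay on separate slides, as did those of a PP group, and all day 25 arrays shared 1 further slide. Tissue and slide, and day and slide, therefore cannot be told apart. In RNA of sorted pools, fewer cells that express a gene and less of its RNA per cell cannot be told apart either. RNA input was set by weight and arrays were brought to 1 distribution. Values are therefore relative to the RNA of a sample and are not amounts per cell. Differences are given below on the log2 scale with their standard error (SE) and as a fold, and a gene was called where its adjusted p in limma was under 0.05. Differences within a tissue are also given from a fit with the slide as a term, because arrays of 1 slide deviated together.

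Myc was highest in Treg cells, intermediate in naive cells and lymph node TFR cells, and lowest in TFH cells. Its normalised intensity was 8957 and 8945 on the pLN day 12 naive arrays, 16897 and 13064 in Treg, 8708 and 7966 in TFR and 1901 and 2919 in TFH. In PP it was 13160 and 17863 in Treg, 4389 and 5402 in TFR, 2011 and 3252 in GL7+ TFH and 2063 and 3418 in GL7- TFH. The TFH arrays thus lay below every array of the other cell types in either tissue, whereas the PP TFR arrays lay between those of TFH and of lymph node TFR. At day 25 Myc read 9305 in naive, 11986 in Treg, 7826 in TFR and 1896 in TFH cells.

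**Figure D1:**
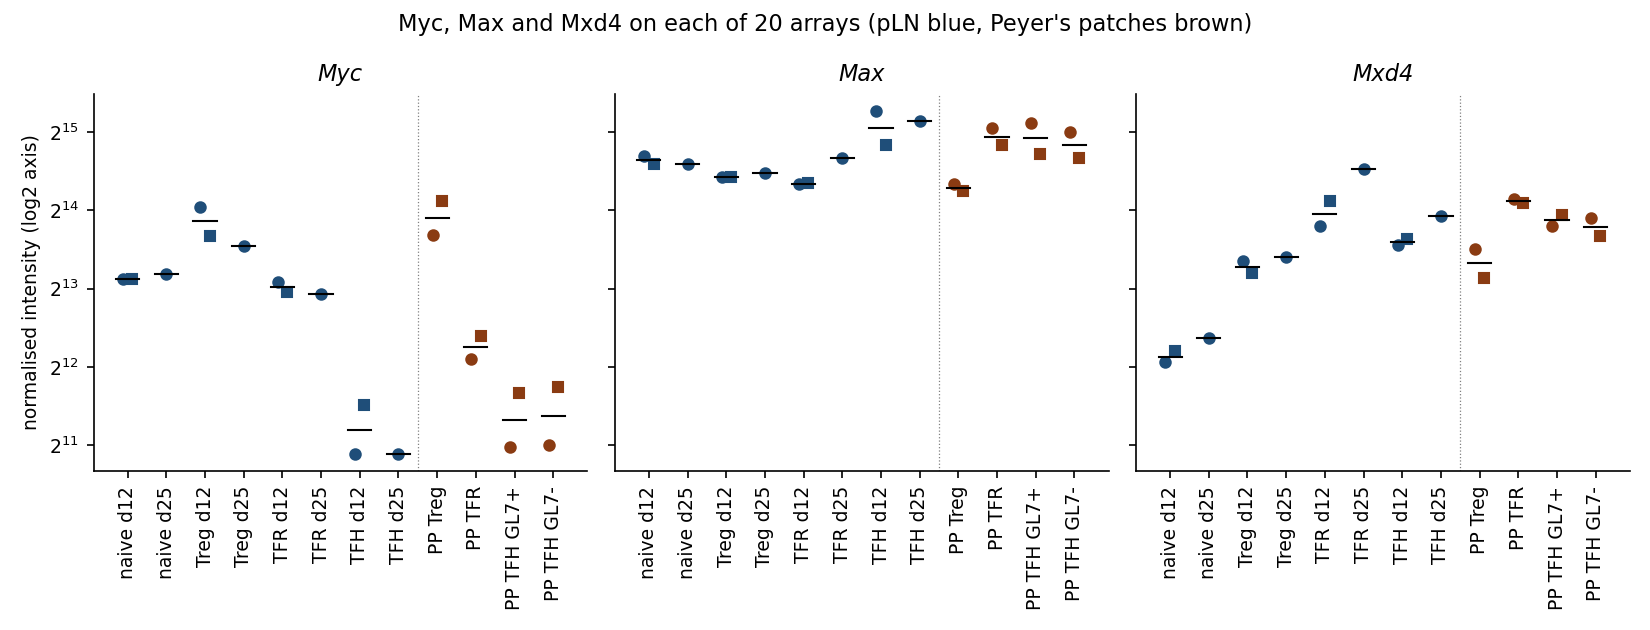
Normalised intensity of Myc, Max and Mxd4 on each of the 20 arrays by cell type, on a log2 axis, with pLN in blue and Peyer's patches in brown, circles for replicate 1, squares for replicate 2 and bars for group means. Myc was lowest in the TFH groups, at 1896 to 3418, while Mxd4 was lowest in naive cells, at 4283 to 5312.

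Mxd4, the repressive partner of Max, had another order. It read 4283 and 4719 in naive cells, 10515 and 9382 in Treg, 12021 and 12668 in TFH and 14212 and 17847 in TFR cells of pLN at day 12. In PP the values were 11637 and 9032 in Treg, 18151 and 17533 in TFR, and 14305 and 15711 in GL7+ TFH. Naive arrays were the lowest and did not overlap with those of any other cell type. Max, the shared partner, ranged more narrowly, from 19418 on a PP Treg array to 39614 on a pLN TFH array. Over the 12 group means, which share slides, Max ran opposite to Myc (r = -0.917). Among the 12 groups, Myc (adjusted p = 0.000393) and Mxd4 (adjusted p = 0.000239) differed, whereas Max did not pass (adjusted p = 0.0856). In all, 21 of the 40 tested members differed among the 12 groups, where 34.3% of all tested genes did.

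The 37 tested biogenesis genes moved largely as a block over the groups. Scored as the median deviation of these genes from their own means over the arrays, pLN day 12 naive arrays stood at 0.31 and 0.36, Treg at 0.29 and 0.30, and TFR at 0.38 and 0.24 log2 units. TFH arrays stood at -0.21 and -0.06. The naive, Treg and TFR arrays did not overlap with those of TFH. Every Treg, TFR and GL7+ TFH array of PP was lower than those of the same cell type in pLN at day 12, with Treg at -0.00 and 0.13, TFR at -0.31 and -0.34, GL7+ TFH at -0.46 and -0.39 and GL7- TFH at -0.51 and -0.30. The PP TFR arrays fell within the range of the PP TFH arrays, and the pLN TFR arrays lay near those of naive and Treg cells. Over the 12 group means, which share slides, the level of the block correlated with Myc at r = 0.81, and with a list of proliferation genes at r = -0.32. Of the 666 pairs of biogenesis members, 610 had a correlation above 0 over these groups, with a median r of 0.73. The same was not computed for pairs of all tested genes, so no general share stands beside this count. The genes whose profile was most like that of Myc were the polymerase I subunit Polr1b (r = 0.93), the large subunit export factor Noc2l (0.92), the methyltransferase Nop2 (0.89), the nucleolar GTPase Gnl3 (0.87) and the methyltransferase Fbl (0.87).

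**Figure D2:**
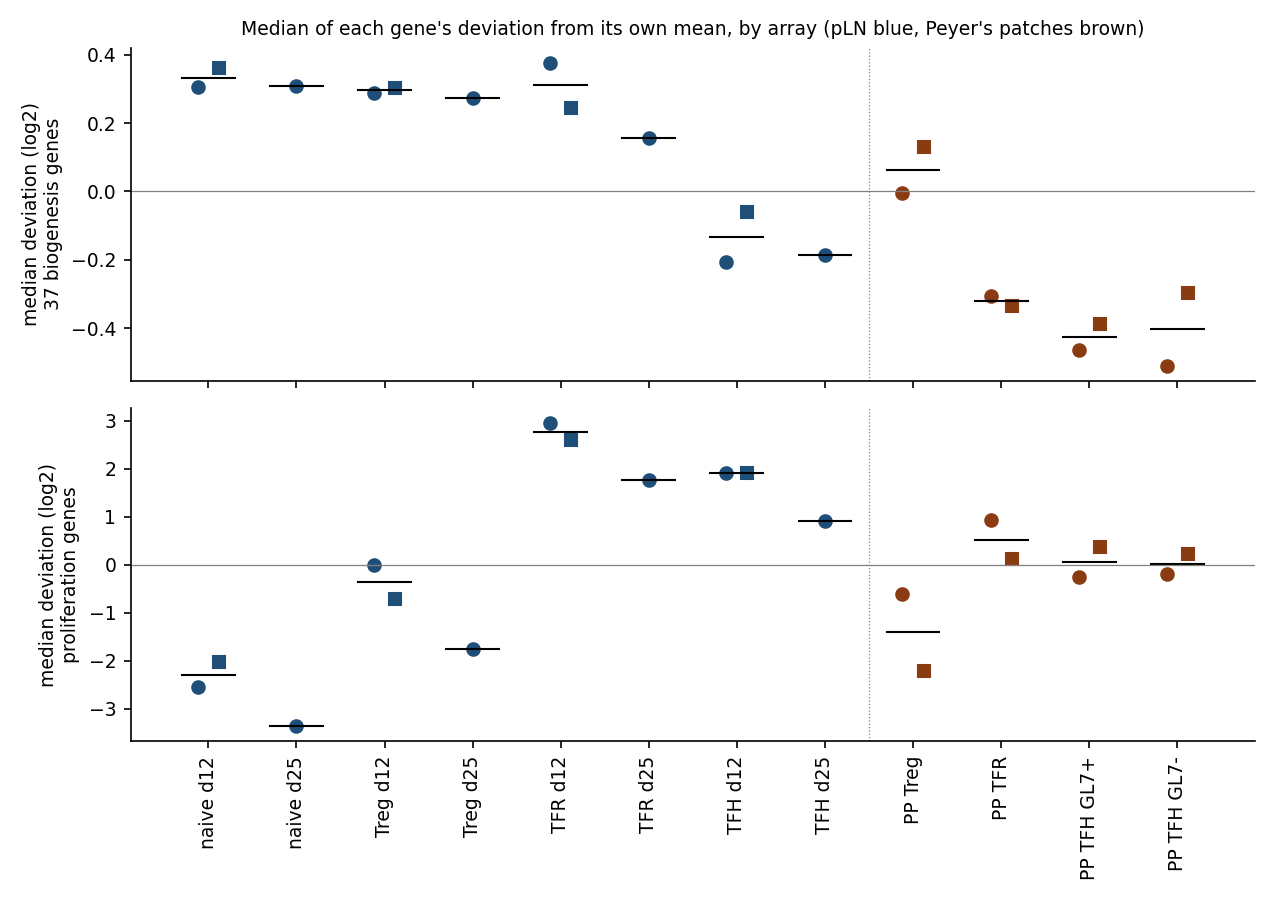
Median log2 deviation from each gene's own mean, by array, for the 37 biogenesis genes (top) and for a list of proliferation genes (bottom), with circles for replicate 1, squares for replicate 2 and bars for group means. In pLN at day 12 the TFH arrays, at -0.21 and -0.06, lay below those of the other cell types in the top panel, and in PP the TFR arrays, at -0.31 and -0.34, lay near those of TFH.

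**Figure D3:**
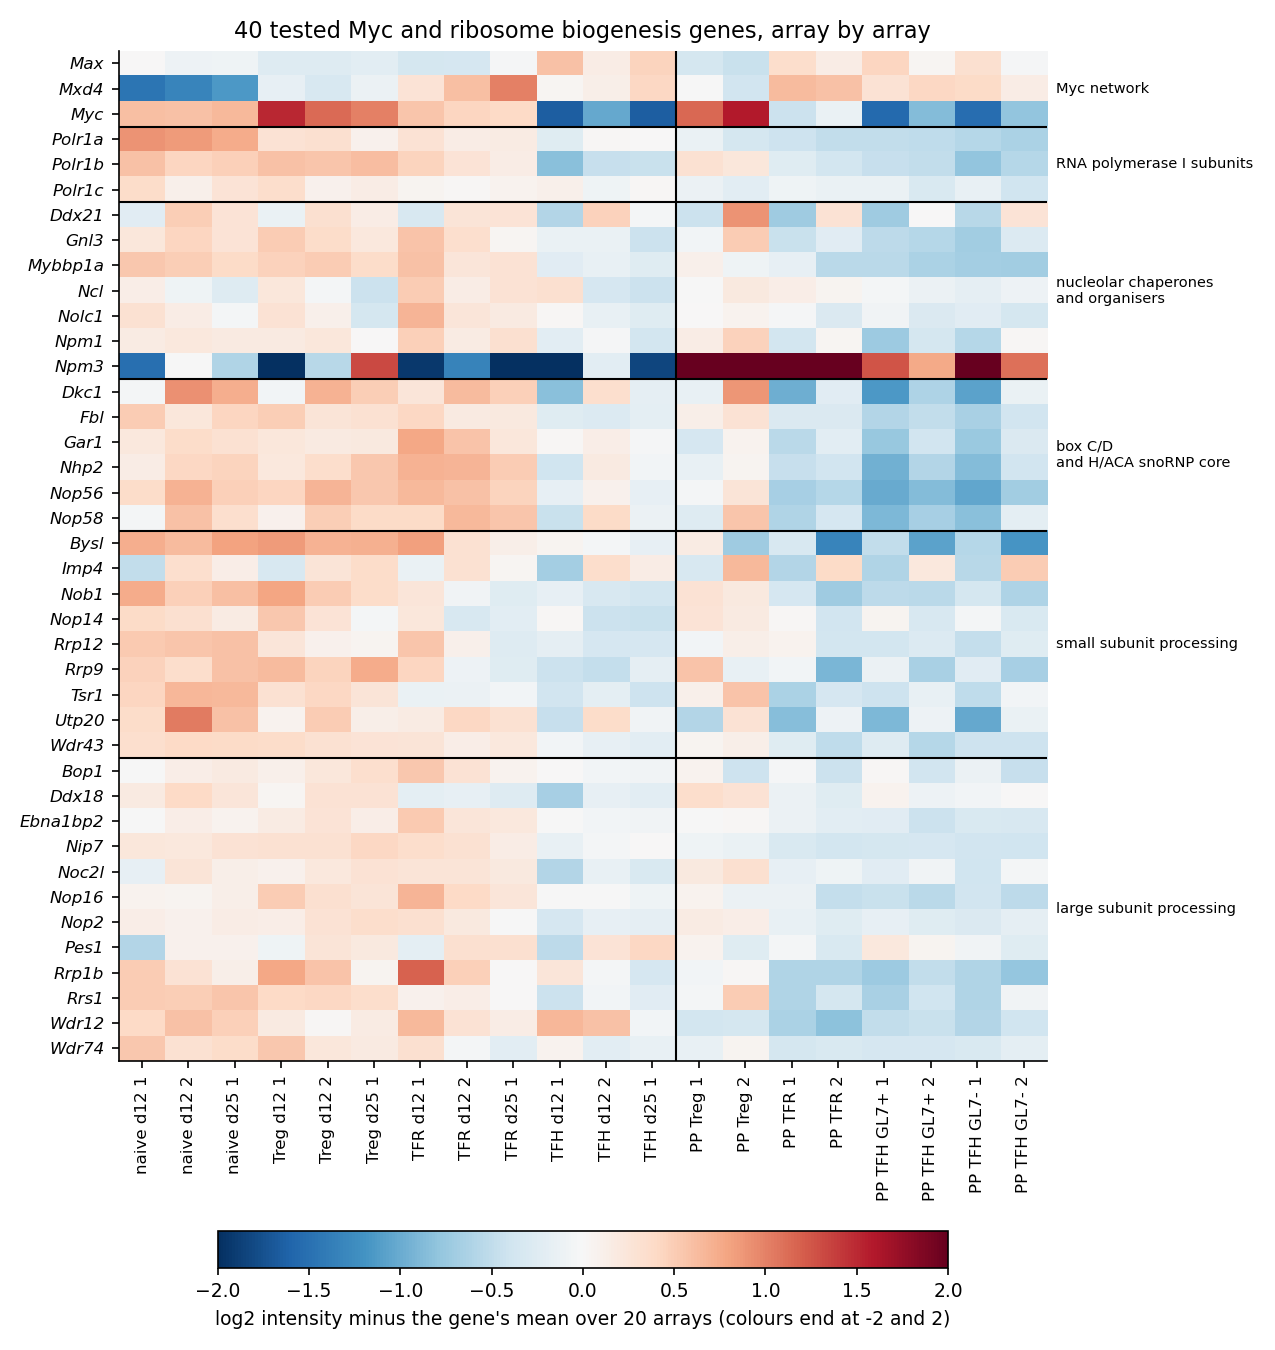
Log2 intensity minus the gene's mean over 20 arrays, with the 40 tested genes in rows grouped by role and the arrays in columns by tissue, cell type and day. Colours end at -2 and 2. Most biogenesis rows are high on naive, Treg and TFR arrays of pLN and low on TFR and TFH arrays of PP, and the Npm3 row has the reverse order of tissues.

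In lymph nodes at day 12, TFH cells had less Myc, more Mxd4 and less of several biogenesis genes than naive cells. Myc fell by 1.93 (SE 0.32), a 3.80-fold lower level (adjusted p = 0.00188), with -2.24 on the first and -1.62 on the second slide. Mxd4 rose by 1.46 (SE 0.18), 2.74-fold (adjusted p = 0.000296). Both groups were separate for each of these genes. Max differed by 0.41 and did not pass (adjusted p = 0.216).

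Of the biogenesis genes called, the catalytic subunits of RNA polymerase I fell the most. Polr1b read 2682 and 2416 in naive and 1009 and 1304 in TFH cells, a decrease of 2.22-fold (log2 -1.15, SE 0.17, adjusted p = 0.000732). Polr1a read 6879 and 6675 against 3126 and 3736, 1.98-fold lower (log2 -0.99, SE 0.15, adjusted p = 0.000941). Nob1, the nuclease that cuts the precursor of the small subunit RNA, read 7119 and 5906 against 3776 and 3404, 1.81-fold lower (log2 -0.86, SE 0.20, adjusted p = 0.0123). None of these groups overlapped. The other members that fell were Tsr1, Rrp12, Ddx18, Mybbp1a and Fbl, by -0.84 to -0.63. Rrp12 was dim, with 122 to 255 over the arrays, where the lowest detected intensity per array was 20 to 143.

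In total 9 of 40 members were lower and 1 was higher in TFH, while 8.91% of all tested genes were lower and 11.2% higher. By role, 2 of 3 polymerase I subunits, 3 of 9 small subunit factors and 1 member each of the other three biogenesis roles were lower. The median difference of the biogenesis genes was -0.45, beside -0.10 over all genes, and 35 of 37 had a negative sign. Fitted with the slide, 22 members were lower and 2, Mxd4 and Max (adjusted p = 0.0275), higher, where 30.1% of all tested genes were lower and 21.3% higher. Without naive replicate 1 or TFH replicate 1 the count of 10 became 4 or 5, and without replicate 2 of either group 6.

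Between Treg and naive cells of the lymph node 1 member was called. Mxd4 was 2.21-fold higher in Treg cells (log2 1.14, SE 0.18, adjusted p = 0.00497). The Myc arrays did not overlap, but the difference of 0.73 (1.66-fold) did not pass (adjusted p = 0.435). No other member was called, so 1 of 40 was higher and 0 lower, beside 3.36% and 1.11% of all tested genes, and 4 members had an unadjusted p under 0.05 in limma. The median of the biogenesis genes was 0.02. Fitted with the slide, Mxd4 and also Polr1a, which was 1.49-fold lower in Treg cells (log2 -0.57, adjusted p = 0.00951), were called, where 14.6% of all tested genes were. The count of 1 became 0 without replicate 1 of either naive or Treg cells.

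The next comparison asked how TFR cells stand to the Treg cells and the TFH cells of the same lymph nodes. Both contrasts use the same TFR arrays. Against Treg cells Mxd4 rose 1.60-fold in TFR (log2 0.68, SE 0.18, adjusted p = 0.0374). Myc was lower on both slides, but the difference of -0.84 (1.78-fold) did not pass (adjusted p = 0.145). None of the biogenesis genes was called, 19 of 37 had a positive sign and their median was 0.02. One member of 40 was thus higher and 0 lower, where 7.66% of all tested genes were higher and 4.39% lower, and 4 members had an unadjusted p under 0.05 in limma. The fit with the slide as a term called 8 members, where 41.6% of all tested genes were called: Mxd4 and Gar1 higher, and Myc (adjusted p = 0.015), Nob1, Tsr1, Nop14, Ddx18 and Wdr74 lower. The call of Mxd4 was lost on leaving out any of 12 of the 16 arrays of groups with 2.

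Against TFH cells, lymph node TFR cells had more Myc and more Polr1b. Myc was 3.54-fold higher in TFR (log2 1.82, SE 0.33, adjusted p = 0.00829). Polr1b, at 2440 and 2176 in TFR and 1009 and 1304 in TFH, was 2.01-fold higher (log2 1.01, SE 0.17, adjusted p = 0.00534), and the groups did not overlap for either gene. Max differed by -0.71 (adjusted p = 0.0754) and Mxd4 by 0.37 (adjusted p = 0.382). These were 2 higher and 0 lower members, where 3.49% of all tested genes were higher and 2.86% lower. The biogenesis median was 0.44, beside 0.01 over all genes, with 36 of 37 genes positive and 32 higher on both slides. With the slide as a term 21 members were higher, 20 of them biogenesis genes, where 13% of all tested genes were higher. Max was then lower (adjusted p = 0.00565), with 10.4% of all tested genes. These 20 comprised 4 of 7 nucleolar chaperones and organisers, 5 of 6 ribonucleoprotein proteins, 7 of 12 large subunit factors, 3 of 9 small subunit factors and 1 of 3 polymerase I subunits. Without TFH replicate 1 or TFR replicate 1 the count of 2 became 0.

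**Figure D4:**
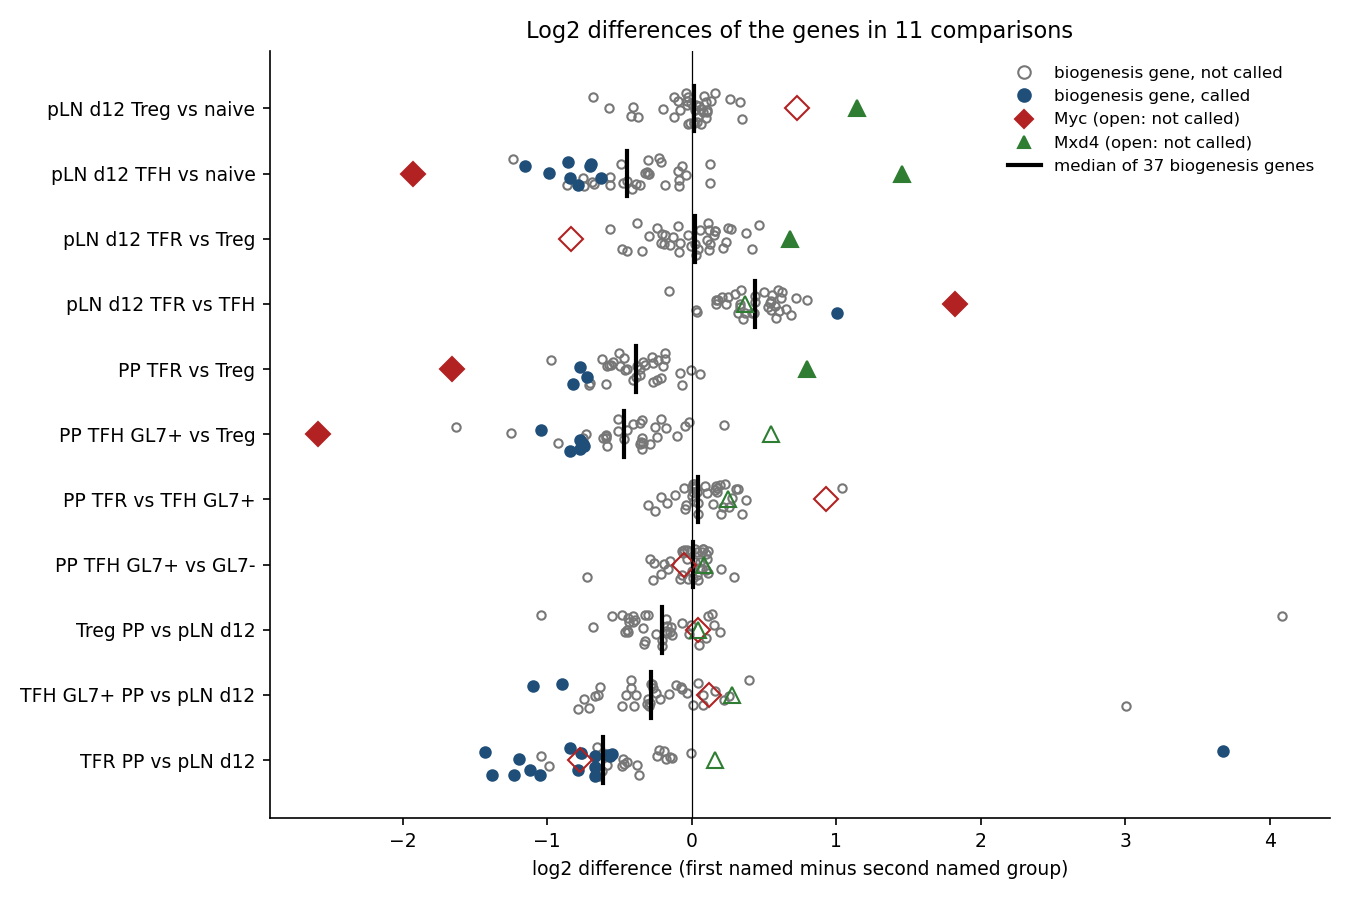
Log2 differences in 11 comparisons (rows), with circles for biogenesis genes, filled where called, diamonds for Myc, triangles for Mxd4 and black bars for the median of 37 biogenesis genes. In pLN this median was 0.44 for TFR against TFH, and in PP it was -0.38 for TFR against Treg.

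In Peyer's patches Myc again descended from Treg through TFR to TFH cells, and both follicular cell types had less of it than Treg cells. For TFR against Treg, Myc was 3.15-fold lower (log2 -1.66, SE 0.33, adjusted p = 0.00799) and Mxd4 1.74-fold higher (log2 0.80, SE 0.18, adjusted p = 0.0174). Tsr1, a factor of the late small subunit, read 2094 and 2882 in Treg and 1250 and 1542 in TFR cells, 1.77-fold lower (log2 -0.82, SE 0.22, adjusted p = 0.037). Nob1 read 5201 and 4887 against 3382 and 2583, 1.71-fold lower (log2 -0.77, SE 0.20, adjusted p = 0.0311). Nop56, a core protein of box C/D particles, read 12337 and 15085 against 8018 and 8532, 1.65-fold lower (log2 -0.72, SE 0.20, adjusted p = 0.0389). The arrays of Treg and TFR were separate for each of these genes, and Max, at 0.65, did not pass (adjusted p = 0.066).

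In all, 4 of 40 members were lower and 1 higher in PP TFR than in PP Treg cells, where 4.5% of all tested genes were lower and 8.06% higher. The biogenesis median was -0.38, beside -0.05 over all genes, with 36 of 37 genes negative and 34 lower on both slides. With the slide as a term 21 members were lower and 2, Mxd4 and Max (adjusted p = 0.00484), higher, where 19.8% of all tested genes were lower and 19.8% higher. The 20 biogenesis genes among them included 7 of 12 large subunit factors, 6 of 9 small subunit factors and 4 of 6 ribonucleoprotein proteins. The first PP slide read higher for B cell markers, although the sort gated on B220- cells. The summed intensity of B cell markers was 120159 for Treg and 179445 for TFR, against 15677 and 13398 on the second, with 11 or 12 of the 12 markers above background. Within the first PP slide the biogenesis median was -0.30 and the Myc difference -1.58. Within the second they were -0.46 and -1.73. The part of B cell RNA in the result was not tested. The count of 5 members called fell without the first PP slide, which leaves 1 array in each PP group. It also fell without any single Treg or TFR array of PP or of pLN at day 12, which leaves 1 array in that group.

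PP TFH cells had less of 7 members than PP Treg cells, which are the arrays also used above. Myc was 6-fold lower in GL7+ TFH (log2 -2.58, SE 0.33, adjusted p = 0.000496). Nop56, at 6305 and 6959 in TFH, was 2.06-fold lower (log2 -1.04, SE 0.20, adjusted p = 0.00565). Npm1, the major nucleolar chaperone, read 99805 and 123955 in Treg and 54620 and 70445 in TFH, 1.79-fold lower (log2 -0.84, SE 0.24, adjusted p = 0.0464), and its 5 probes gave -1.58 to -0.46. Nob1 was 1.71-fold lower (log2 -0.78, SE 0.20, adjusted p = 0.0283), and Gnl3, Polr1b and Fbl were lower by -0.77 to -0.75. Treg and TFH arrays were separate for Myc, Nop56, Npm1 and Nob1. Max (0.63, adjusted p = 0.072) and Mxd4 (0.55, adjusted p = 0.0815) did not pass.

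The 7 members that fell, with 0 higher, stand beside 6.01% of all tested genes that were lower and 7.64% that were higher. The biogenesis median was -0.47, beside 0.03 over all genes, and 36 of 37 were negative. With the slide as a term 26 members were lower and 2, Max (adjusted p = 0.00522) and Mxd4 (adjusted p = 0.0175), higher, where 19.4% of all tested genes were lower and 21.9% higher. Lower were all 6 ribonucleoprotein proteins and 9 of 12 large subunit factors. Without the first PP slide the count was 1, which was Myc (-2.46, adjusted p = 0.0189). It was also 1 without Treg replicate 2 or GL7+ TFH replicate 1 and 2 without GL7+ TFH replicate 2.

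Between TFR and GL7+ TFH cells of PP 0 of 40 members were called by limma, where 2.73% of all tested genes were higher in TFR and 1.33% lower. One member had an unadjusted p under 0.05. Myc was 1.90-fold higher in TFR (log2 0.93) with an adjusted p of 0.222, and with the slide as a term it passed (adjusted p = 0.0238), as the only member, where 13.8% of all tested genes did. The biogenesis median was 0.05. Between GL7+ and GL7- TFH cells of PP limma also called 0 members, with 0 at an unadjusted p under 0.05. Of all tested genes 0.0058% were called. The Myc difference was -0.05 (adjusted p = 1) and the biogenesis median 0.01.

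Of the cell types compared between the tissues, TFR cells had the most members called. In PP TFR cells 15 of 40 members were lower and 1 was higher than in lymph node TFR cells of day 12, where 8.37% of all tested genes were lower and 8.29% higher. The biogenesis median was -0.61, beside 0.00 over all genes, with 36 of 37 genes negative. Rrp1b, a nucleolar factor of the large subunit, read 2617 and 1615 in pLN and 765 and 763 in PP, 2.69-fold lower (log2 -1.43, SE 0.23, adjusted p = 0.003). Bysl, which matures the small subunit, read 7843 and 5476 against 3568 and 1781, 2.60-fold lower (log2 -1.38, SE 0.39, adjusted p = 0.0377). Nop56 read 19737 and 19006 against 8018 and 8532, 2.34-fold lower (log2 -1.23, SE 0.20, adjusted p = 0.00302). The tissues did not overlap for these 3 genes.

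Ribonucleoprotein proteins and large subunit factors held most of the other calls. By role the lower members were 4 of 6 ribonucleoprotein proteins, 5 of 12 large subunit factors, 2 of 3 polymerase I subunits, 2 of 7 nucleolar organisers and 2 of 9 small subunit factors. Among H/ACA proteins, Nhp2 read 32759 and 32457 in pLN and 14641 and 15414 in PP TFR (log2 -1.12), and Gar1 20897 and 18065 against 8400 and 10534 (log2 -1.05). Both sets were separate. Myc itself differed by -0.77, 1.71-fold, and did not pass (adjusted p = 0.142), and neither did Max at 0.60 (adjusted p = 0.07).

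When the slide was a random block, 8 members were lower in PP TFR and 0 higher, where 5.81% of all tested genes were lower. These were Nop16, Nop56, Gar1, Nhp2, Wdr12, Rrp1b, Bysl and Nip7. The count of 16 became 3 without pLN TFR replicate 1, 6 without PP TFR replicate 2, and 9 without pLN TFR replicate 2, without PP TFR replicate 1 or without the whole first PP slide. With scaling to the 75th percentile alone, 19 members were lower and 1 higher, and the share of higher genes among all called genes moved from 49.8% to 38%. PP TFR also had more follicular marker RNA, with a Bcl6 intensity of 54484 and 46610 against 8852 and 10321. The summed intensity of 12 B cell markers was 179445 and 13398 against 8898 and 7507, with 12 of 12 differences positive, a median of 2.57 and 1 called. Epithelial markers had 6 of 6 positive, with a median of 2.07. Proliferation genes were lower in PP TFR, by a median of -2.22 over 15 genes, with 13 called. Their part in the biogenesis result was not tested.

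Fewer members were called between tissues in the other cell types. In TFH cells 2 of 40 members were lower in PP and 0 higher, where 2.86% of all tested genes were lower and 3.24% higher. These were Wdr12, a large subunit factor (2.14-fold, log2 -1.10, SE 0.17, adjusted p = 0.00655), and Nop56 (1.86-fold, log2 -0.89, SE 0.20, adjusted p = 0.0282). Myc differed by 0.12 (adjusted p = 0.908). Without PP GL7+ TFH replicate 1, or without the first PP slide, the count was 0, and it was 1 without GL7+ TFH replicate 2 or pLN TFH replicate 1. In Treg cells 0 members were called by limma, where 2.01% of all tested genes were higher in PP and 0.736% lower, and 11 members had an unadjusted p under 0.05. The biogenesis median was -0.21 in Treg and -0.28 in TFH cells, and the Myc difference in Treg was 0.05 (adjusted p = 0.99).

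The Treg to TFR difference was then compared between tissues by its own test. For the biogenesis genes this difference was lower in PP than in pLN in 35 of 37, with a median of -0.34 beside 0.04 over all genes. In limma 0 members were called, where 0.557% of all tested genes were, and 6 members had an unadjusted p under 0.05. Myc gave -0.82 (adjusted p = 0.786). With the slide as a term 4 members passed, where 8.45% of all tested genes did: Nop56, Gar1 and Dkc1, which moved lower in PP, and Max, which moved higher. Gar1 read 14263 and 13810 in Treg and 20897 and 18065 in TFR of pLN, and 9652 and 12789 against 8400 and 10534 in PP. Nop56 read 17007 and 20319 in Treg and 19737 and 19006 in TFR of pLN, arrays that overlapped, while those of PP were separate. The tissue difference of TFR was also set against that of TFH, with a biogenesis median of -0.36. Here 0 members were called by limma, where 0.655% of all tested genes were, and 5 had an unadjusted p under 0.05.

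**Figure D5:**
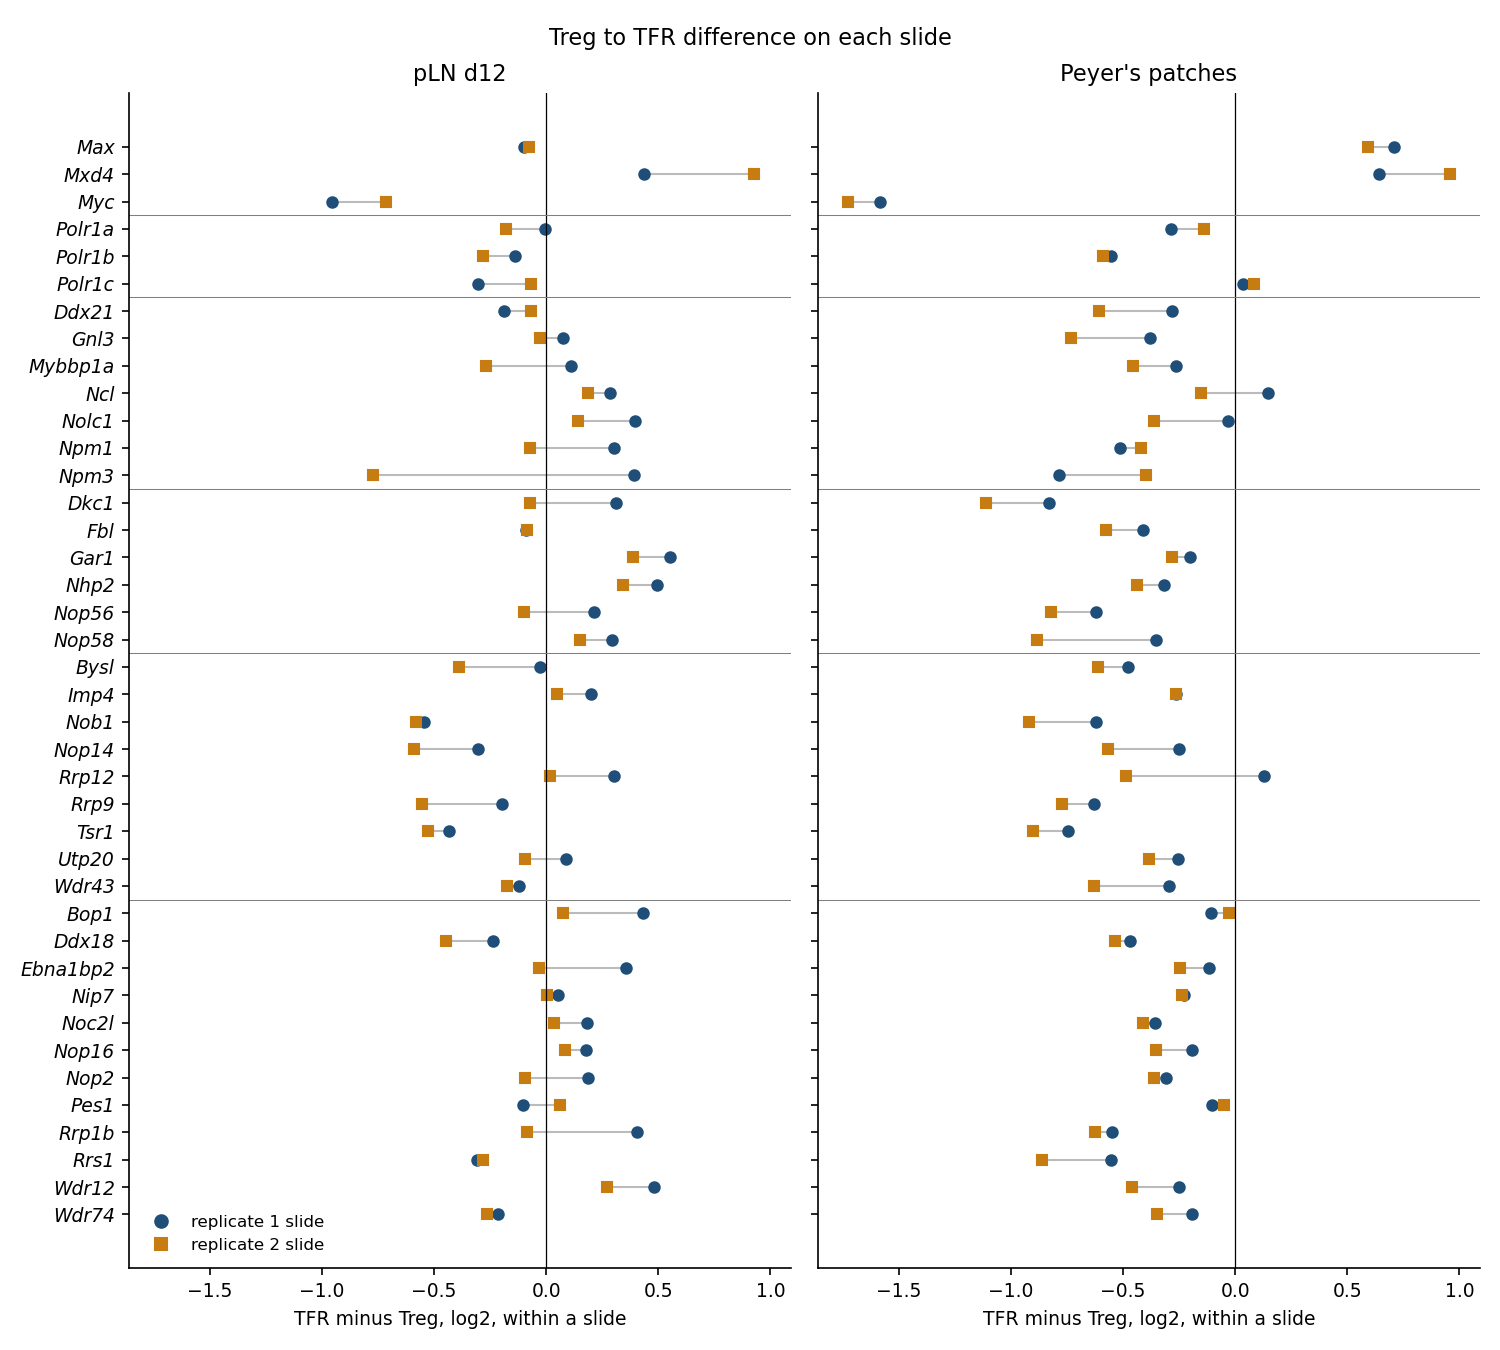
TFR minus Treg on the log2 scale within each slide for the 40 tested genes, in pLN at day 12 (left) and in Peyer's patches (right), with circles for the slide of replicate 1 and squares for that of replicate 2. Biogenesis genes lie on both sides of 0 in pLN, with a median of 0.02, and mostly below 0 in PP, with a median of -0.38.

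Day 25 was measured with 1 array for each cell type on a slide of its own. Averaged over the 4 pLN cell types, 0 members differed between day 25 and day 12 in limma, where 0.058% of all tested genes did, and 5 had an unadjusted p under 0.05. The biogenesis median by cell type was 0.04 in naive, -0.06 in Treg, -0.05 in TFH and -0.17 in TFR cells. Myc differed by -0.16 (adjusted p = 0.895) and Mxd4 by 0.32 (adjusted p = 0.398).

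Several members stood apart from the block. Npm3, a small nucleolar chaperone, read 946 to 32427 in pLN and 22071 to 96713 in PP, and its tissue difference in TFR was a 12.8-fold higher level in PP (log2 3.68, SE 1.02, adjusted p = 0.0345), opposite to the other called members. Its replicates were wide, with 946 and 11263 in pLN TFH, and its median correlation with the other members was -0.37. Of its probe 50% is adenine, against a median of 28.3% over tested probes, and 179 tested probes followed it with r above 0.9, none of them a member. Genes of the lists outside the module were among them: Lyar (r = 0.968), from the further ribosome biogenesis genes below, and Mycl (r = 0.995). Whether probe composition has a part in these values was not tested. Ncl and Pes1 were the other members with low median correlations, 0.12 and 0.11.

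Probes of 1 gene did not always move together. The second Ncl probe gave -1.03 for PP TFR against Treg where the brightest gave -0.00, and Ebna1bp2 and Polr1a had a probe of opposite sign for the tissue difference of TFR (0.31 against -0.55, and 0.37 against -0.67). The brightest Wdr12 probe is annotated to chromosome 7 (mm9, chr7:13765490-13765549), whereas RefSeq places the gene on chromosome 1. The other Wdr12 probe, at chr1:60134539-60134598, gave -1.37 for the tissue difference of TFR and -0.71 for that of TFH.

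Other genes of the same pathways were read from lists outside the module, which were also chosen with earlier results of these data known. Of 78 further ribosome biogenesis genes, 12 were lower and 1 higher in lymph node TFH than in naive cells, beside 8.91% and 11.2% of all tested genes, with a median of -0.39 against -0.10 over all genes. Pwp2 gave -1.11 and Wdr46 -1.07. In PP TFR against lymph node TFR 11 were lower and 1 higher, beside 8.37% and 8.29% of all tested genes, with a median of -0.40 against 0.00, and Mrto4 gave -1.14. In PP TFR against PP Treg limma called 0 of the 78, where 4.5% of all tested genes were lower and 8.06% higher, and 16 had an unadjusted p under 0.05. Their median there was -0.33, against -0.05 over all genes.

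Of 18 further Myc targets that are not ribosome factors, 2 were higher and 0 lower in lymph node TFH than in naive cells, a share close to the 11.2% of all tested genes that were higher. They were Odc1, the first enzyme of polyamine synthesis (2.34), and Tfrc, the transferrin receptor (1.64). In PP TFR against PP Treg cells 1 was higher, Odc1 (1.49), and 2 were lower, the spermidine synthase Srm (-0.92) and the cyclin Ccnd2 (-0.92), where 8.06% of all tested genes were higher and 4.5% lower. In PP TFR against lymph node TFR cells 5 were lower and 0 higher, with Srm at -1.18, where 8.37% of all tested genes were lower. Proliferation genes rose together in lymph node TFH cells against naive, with 15 of 15 higher and a median of 4.33, where 11.2% of all tested genes were higher. They also rose in lymph node TFR against Treg cells, with 15 of 15 higher and a median of 2.99, where 7.66% were.

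The medians of biogenesis genes with and without an E-box in the window are given as a description, with no test. For lymph node TFH against naive cells the median was -0.48 over the 7 tested biogenesis genes with the motif and -0.42 over the 25 without. For the tissue difference of TFR it was -0.45 and -0.67.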

How the data were processed

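RNA of 20 samples of sorted CD4 T cells (12 groups) was measured on 1-colour Agilent arrays. The deposited scanner files hold intensity values, which the authors obtained with Agilent Feature Extraction 10.7.3.1 (background subtracted), and quality marks for each feature (well above background, saturated, outlier), used here for filtering. Groups were taken from the labels, and replicate numbers follow accession order. Each probe has 4 features, averaged geometrically on the processed signal after outlier filters (1.42 interquartile ranges, pixel variation 0.5). Arrays were then brought to 1 distribution by quantile normalisation with the 75th percentile set at 1500, and values under 20 were raised to 20 before log2 was taken. They differed from the authors' deposited values by a median of 0.0306 to 0.0318 log2 units per array. A probe was tested if at least 3 of 4 features were above background on both arrays of at least 1 group.

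A mean per group was fitted in limma 3.58.1 (R 4.3.3; 8 residual degrees of freedom) over 22264 of 39429 probes, with Benjamini-Hochberg adjustment over all of them. Fits with the slide as a fixed term (within tissue) or random block (between tissues; consensus correlation 0.742) were added, since differences between replicate arrays of 2 groups on the same slides correlated at 0.521 to 0.866. Nothing says that pools of a group came from separate experiments, so p-values measure only the spread between these samples. The number of arrays limits precision. Alternatives were normexp background correction, percentile scaling alone, no dim filter, the mean of all probes, the authors' values, a 2-fold rule, only the compared groups, leaving out arrays or the first PP slide, and the methods' t-test. Text named Myc, Max, Mxd4 and up to 3 other called members of largest difference in each direction, the rest by role. Further members were named after their values were seen. Members and lists were chosen with earlier results of these data known. The test was checked on simulated data with few changed probes and without the shared deviations of a slide. Simulated 2-fold changes were not recovered there, so a member not called is not shown to be unchanged.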

Additional observations from a re-analysis of the deposited data

Results flagged for a closer look

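The Treg to TFR difference was compared between PP and lymph nodes at day 12, with the slide as a fixed term, and 4 of 40 members passed that test, a share close to the 8.45% of all tested genes that passed it. These members were chosen after their values were seen. For Max, the partner of Myc, the difference in PP minus that in pLN was 0.738 on the log2 scale (adjusted p = 0.0434). It was -0.781 for Nop56 (adjusted p = 0.0259) and -0.709 for Gar1 (adjusted p = 0.0241), both core proteins of modifying ribonucleoproteins. Dkc1, the pseudouridine synthase of the H/ACA particles, gave -1.092 (adjusted p = 0.0439), with intensities of 964 and 1634 in Treg and 1196 and 1554 in TFR of pLN, and 906 and 1859 against 509 and 860 in PP. Without the slide in the fit, 0 members passed in limma, with 6 at an unadjusted p under 0.05. With the slide as a random block 6 passed, among them Max, Nop56 and Gar1 but not Dkc1.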

How the results depend on the processing

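Counts below are members called, with the value as reported in brackets. With normexp correction they were 2 for lymph node Treg against naive [1] and 4 for TFR against TFH [2]. Percentile scaling alone gave 1 for the tissue difference of Treg [0], and there moved the share of higher genes among all called from 73.2% to 61%. Without the dim filter there were 2 for Treg against naive, 4 for lymph node TFR against TFH, 8 for PP TFR against Treg [5], 2 for the tissue difference of Treg and 1 for that of TFR minus TFH [0]. The mean of all probes gave 0 for lymph node TFR against Treg [1], 3 for PP TFR against Treg and 1 for the tissue difference of TFH [2]. The 2-fold rule gave 3 for TFH against naive [10], 0 for lymph node TFR against Treg, 1 for PP TFR against Treg, 2 for PP TFH against Treg [7], 1 for the tissue difference of TFH and 7 for that of TFR [16]. With only the compared groups in the fit, TFH against naive gave 1, the tissue difference of TFR 1, and 0 were called for Treg against naive, both lymph node TFR comparisons, PP TFR or TFH against Treg, and the tissue difference of TFH.

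With the replicate block by slide (fixed), the counts were 24 for TFH against naive, 2 for Treg against naive, 8 for lymph node TFR against Treg, 22 for TFR against TFH, 23 for PP TFR against Treg, 1 for PP TFR against TFH [0], 28 for PP TFH against Treg and 4 for the Treg to TFR difference between tissues [0]. As a random block they were 26, 4, 9, 24, 25, 1 and 28 in the same order, then 6 for that difference, 1 for the tissue difference of TFH, 8 for that of TFR, 3 for TFR minus TFH and 35 among the 12 groups [21]. Without the first PP slide they were 0 for PP TFR against Treg, 1 for PP TFH against Treg, 0 and 9 for the tissue differences of TFH and TFR, and 12 among the groups. The causes were not tested.

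Leaving out 1 array gave 4 to 11 for TFH against naive, 0 to 1 for Treg against naive and for lymph node TFR against Treg, 0 to 3 for TFR against TFH, 0 to 6 for PP TFR against Treg, 1 to 7 for PP TFH against Treg, 0 to 1, 0 to 2 and 3 to 15 for the tissue differences of Treg, TFH and TFR, and 14 to 20 among the groups. The other comparisons had a count of 0 on leaving out any array.

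Myc changed sign where it was not called. Its tissue difference in Treg was -0.194 with percentile scaling alone, and on leaving out 1 array ranged from -0.175 (without PP Treg replicate 2, and -0.140 without pLN Treg replicate 2) to 0.266. In TFH it ranged from -0.228 (without PP replicate 2, and -0.191 without pLN replicate 1) to 0.466. For GL7+ against GL7- it ranged from -0.419 to 0.310 (without GL7- replicate 2, and 0.293 without GL7+ replicate 1). Myc in TFH against naive cells passed in 23 of 24 settings, and Myc in PP TFH against Treg in 24 of 25. Some other named calls were less steady. Npm1 in PP TFH against Treg did not pass in 16 of 25 settings. Tsr1 and Nop56 in PP TFR against Treg did not pass in 12 of 25 each, and Bysl in the tissue difference of TFR in 11 of 24. With 2 arrays a group, small differences were not detectable. Rrp12 was dim, although above background on all 20 arrays.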
